A study of Mus musculus with 7 samples.

Results

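Steroid hormone metabolizing enzymes were followed across 7 arrays of sorted mouse prostate luminal cells, which secrete the fluid of the gland. The set was a list of 10 genes for enzymes that make, convert or inactivate androgens, estrogens and glucocorticoids, and its members were the probe sets annotated to them. Of the 10 genes, 8 had probe sets in the annotation used, 19 in all, among 18193 genes measured. They were Srd5a3, Hsd17b4, Hsd17b10, Hsd17b11, Hsd17b12, Hsd11b1, Sult1e1 and Cyp7b1. Srd5a1 and Srd5a2, the other steroid reductases of the list, were not analysed here.

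The study compared wild-type mice (WT, arrays A, B and C) with T-ETV1 mice (arrays A, B, C and D). T-ETV1 mice hold a cDNA of human ETV1, an ETS transcription factor, driven by the mouse Tmprss2 promoter at its own locus, so that the allele is active where that promoter is. Cells of both genotypes were sorted as Sca1-, CD49f+ and free of the blood, leukocyte and endothelial markers Ter119, CD45 and CD31. T-ETV1 cells were sorted in addition as GFP+ and WT cells were not, and the effects of genotype and of this gate cannot be told apart. Where values of single arrays are listed, they follow the letters. The labels give no age or strain and do not say whether an array held cells of 1 mouse or of several. The series is described as having 3 biological replicates, whereas T-ETV1 has 4 arrays, and how they were drawn is not said, so the errors given here measure the spread between these arrays.

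The prostate depends on androgens, and its cells shape the hormone they see. Steroid reductases turn testosterone into the more potent dihydrotestosterone, and hydroxysteroid dehydrogenases interconvert active and less active androgens, estrogens and glucocorticoids, most of them in 1 preferred direction. Sulfotransferases and hydroxylases then inactivate steroids or mark them for removal.

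No gene of the 8, and none of the others measured, differed between the genotypes past the threshold. With limma, a linear model that shares the estimate of spread across genes, 0 of 18193 genes (0%) had an adjusted p under 0.05, and 1113 (6.12%) had an unadjusted p under 0.05. Of the 8 enzyme genes 1, Sult1e1, was among the latter. The same gene was the only one of the 8 whose groups of arrays did not overlap, against 1150 of all genes (6.32%). Differences are T-ETV1 minus WT on the scale of log2(intensity + 16). By sign 5 of the 8 were above 0 and 3 below, with a median of 0.04, beside a median of -0.03 over all genes. Of all genes 55.6% were below 0.

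The enzymes differed in how much they varied. Of the 8, 6 had small differences: Srd5a3, Hsd17b4, Hsd17b10, Hsd17b11, Hsd17b12 and Cyp7b1 lay between -0.14 and 0.20. Their 95% intervals all lay between -0.52 and 0.78, and the upper bound, that of Cyp7b1, corresponds to a fold of 1.72. Sult1e1 and Hsd11b1 varied far more between arrays of the same genotype. Their highest intensity over the 7 arrays was 68.8 and 74.8 times the lowest, while in the probe sets that stand for the other 6 genes it was at most 1.95 times. The spread within genotypes was smaller than that of Hsd11b1 in 98.5% of all genes and smaller than that of Sult1e1 in 97.2%. This share was 67.1% for Srd5a3, 62.4% for Cyp7b1, 55.7% for Hsd17b11, 36.7% for Hsd17b4, 23.8% for Hsd17b10 and 4.34% for Hsd17b12, so 3 of the 6 varied more than most genes.

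**Figure D1:**
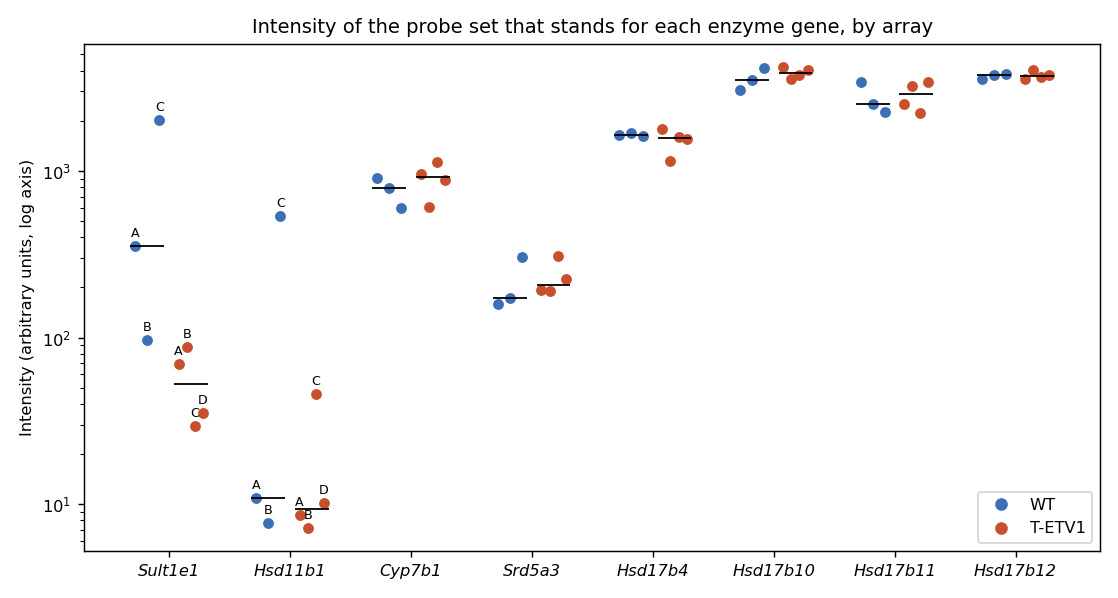
Intensity of each of the 8 enzyme genes on a log axis, 1 point per array (3 WT, 4 T-ETV1), with the group median as a bar and replicate letters given for the widest-ranging genes. Sult1e1 reached 2034 in WT C and 29.6 in T-ETV1 C, and Hsd11b1 stood at 539 in WT C, while the points of the other 6 genes lie close together.

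Sult1e1 encodes the estrogen sulfotransferase, which attaches sulfate to estrogens so that they no longer bind their receptors. Its single probe set had intensities of 355 in WT A, 96.1 in WT B and 2034 in WT C. In T-ETV1 it had 69.3 in A, 87.4 in B, 29.6 in C and 35.2 in D. All T-ETV1 arrays were therefore below all WT arrays; the closest pair was WT B and T-ETV1 B, at 96.1 against 87.4. The WT arrays averaged 8.78 ± 2.11 (SD, n = 3) on the log2 scale, and those of T-ETV1 6.07 ± 0.57 (SD, n = 4). The difference was -2.71 ± 0.93 (SE), with a 95% interval from -4.93 to -0.48 and an adjusted p of 0.772 over all genes, so it did not pass. On that scale the difference corresponds to a 6.54-fold lower value, with an interval from 1.40-fold to 30.6-fold. It ranked 566 by p among all genes.

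How large the Sult1e1 difference was depended on the WT arrays, most of all on WT C. Within the letters it was -2.12 for A, -0.12 for B and -5.49 for C. It was -1.60 without WT C, -3.70 without WT B, -2.52 without T-ETV1 C, and -1.41 without both arrays C. After each array was centred on its median the groups overlapped. The sign was negative under all 17 alternatives, and the adjusted p lay between 0.518 and 0.999.

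Hsd11b1 encodes the dehydrogenase that regenerates active glucocorticoid from its inert keto form inside cells. Its single probe set had 10.9 in WT A and 7.68 in WT B, below the 16 added before the log, and 539 in WT C. In T-ETV1 it had 8.61 in A, 7.20 in B, 45.5 in C and 10.1 in D. Both arrays C were thus the highest of their genotype, and the other 5 arrays did not part by genotype. The WT arrays averaged 6.14 ± 2.58 on the log2 scale (SD, n = 3), and those of T-ETV1 4.95 ± 0.66 (SD, n = 4). The difference of -1.19 ± 1.13 (SE; adjusted p = 0.917) had an interval from -3.90 to 1.51. It turned to 0.29 when WT C was left out and was -0.04 with neither array C.

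Markers of other cell types also differed between the arrays. In bulk samples fewer cells of a type and less RNA per cell cannot be told apart. Beside the sign counts of the markers, 55.6% of all genes were below 0. Of 12 fibroblast markers 11 were below 0 in their difference, with a median of -1.85, and their summed intensity ran from 7947 to 39230 in WT and from 4215 to 12686 in T-ETV1. Of 10 leukocyte markers 9 were below 0 (median -0.84), with sums from 120 to 14733 in WT and from 151 to 6645 in T-ETV1. That sign rested on WT C: the sums of WT A and WT B lay below those of all T-ETV1 arrays, and the median turned to 0.83 without WT C and to 0.26 without both arrays C. Of the other lists, the fibroblast median was -0.80 without WT C. The 10 endothelial markers were all below 0 (median -2.11; 1920 to 6187 in WT, 415 to 2459 in T-ETV1). The 10 basal markers were too (median -2.09; 6465 to 22143 in WT, 719 to 17640 in T-ETV1), and 9 of 10 smooth muscle markers were (median -1.27; 715 to 5968 in WT, 193 to 1035 in T-ETV1). In each of these 5 lists WT C had the highest sum of the WT arrays and T-ETV1 C the highest of the T-ETV1 arrays. No marker passed the threshold, and none was at or under an intensity of 1 in all arrays. The 11 luminal markers had a median difference of -0.01 and sums from 86714 to 89464 in WT and from 84976 to 92903 in T-ETV1. All 6 markers of seminal vesicle, a gland next to the prostate, were above 0 (median 0.33).

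The array order of the markers was that of Hsd11b1 only in part. WT A and WT B held fibroblast sums of 7947 and 14747, above the 4215 of T-ETV1 A, yet their Hsd11b1 values of 10.9 and 7.68 were near its 8.61. The leukocyte sums were 14733 and 6645 in the arrays C and at most 381 in the other 5, and Hsd11b1 was at most 10.9 in those 5. Sult1e1 was highest in WT C, where the markers were also highest, but lowest in T-ETV1 C, where the markers were the highest of that genotype. Between WT A and WT B it was higher in A, which had the lower sum in all 5 lists. The part of these cells in the Hsd11b1 and Sult1e1 values was not tested.

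**Figure D2:**
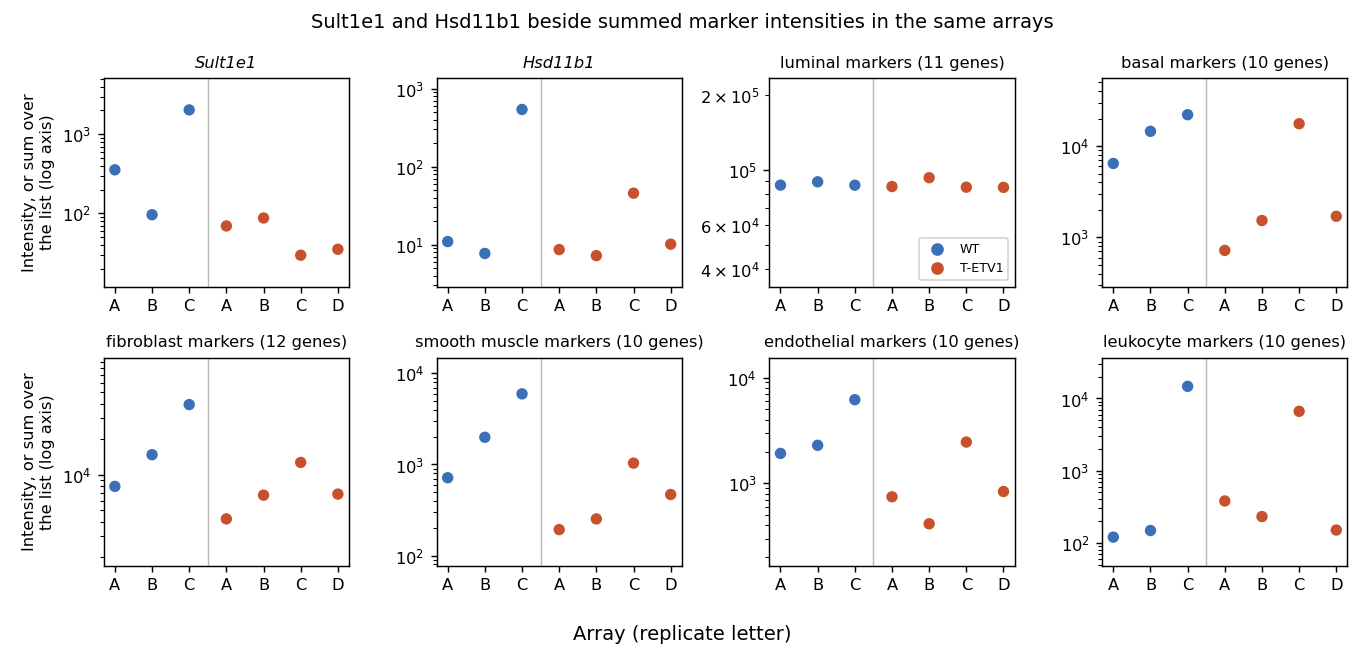
Intensity of Sult1e1 and Hsd11b1, and the intensity summed over each marker list, in the 7 arrays (letters, blue WT, red T-ETV1; log axes, scaled per panel). Hsd11b1 and the 5 lists of other cell types had their highest value of each genotype in array C, while Sult1e1 was at 29.6 in T-ETV1 C, its lowest value, and luminal markers stayed between 84976 and 92903.

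The sequence before the start of the genes with the widest and the narrowest range over arrays is shown, from RefSeq on GRCm38.p6, as the 250 bases 5′ of a transcript start on the gene's strand. The windows of Sult1e1 and Hsd17b12 adjoin the 5′ end of the annotated gene. That of Hsd11b1 lies before an internal start, within the annotated span of the gene, and sequence at its outermost 5′ end was not used here. Matches to GGAAGT, a longer form of the GGAA core of ETS factor sites, or its reverse complement ACTTCC are in capitals. So would be matches to AGAACA or TGTTCT, the half-site bound by androgen and glucocorticoid receptors. GGAA on its own was not searched for. Sult1e1 lies on the minus strand (chr5:87591612-87591861), as do Hsd11b1 (chr1:193242361-193242610) and Hsd17b12 (chr2:94157910-94158159).
Sult1e1: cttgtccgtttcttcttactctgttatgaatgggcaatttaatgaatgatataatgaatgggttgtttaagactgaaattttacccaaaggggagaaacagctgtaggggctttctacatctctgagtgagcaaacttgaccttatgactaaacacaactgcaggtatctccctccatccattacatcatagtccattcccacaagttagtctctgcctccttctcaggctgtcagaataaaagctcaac
Hsd11b1: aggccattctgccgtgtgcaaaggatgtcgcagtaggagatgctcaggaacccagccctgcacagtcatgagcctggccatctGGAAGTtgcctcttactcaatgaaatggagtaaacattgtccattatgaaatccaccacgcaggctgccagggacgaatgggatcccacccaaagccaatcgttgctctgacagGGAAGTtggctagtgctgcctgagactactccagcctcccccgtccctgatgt
Hsd17b12: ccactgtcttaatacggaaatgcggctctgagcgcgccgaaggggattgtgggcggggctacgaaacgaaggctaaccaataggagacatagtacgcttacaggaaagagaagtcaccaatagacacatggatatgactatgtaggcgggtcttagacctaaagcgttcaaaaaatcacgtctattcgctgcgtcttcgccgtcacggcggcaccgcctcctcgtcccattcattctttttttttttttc

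Hsd11b1 had 2 matches to GGAAGT or its reverse complement in this internal window, and Sult1e1 and Hsd17b12 had 0. Over 32851 promoter windows of the same length 19.7% held such a match and 16.1% the steroid half-site. Of the other measured enzymes with a window, Hsd17b11 had 1 match to GGAAGT, and Hsd17b10 and Srd5a3 had 0. None of these 6 genes had a half-site in the window. The windows differed in base composition. Sult1e1 had a GC content of 40.8% and 1 CpG, against 49.6% and 20 CpGs in Hsd17b12, 54.4% and 6 in Hsd11b1, and medians of 52.4% and 6 over all windows. A match describes letters in a window and says nothing of binding.

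Among the steroid reductases, Srd5a3 also acts in the making of dolichol, the lipid that carries sugars for protein glycosylation. Its brightest probe set had intensities of 158, 172 and 305 in WT against 192, 191, 309 and 223 in T-ETV1. Both arrays C were the highest of their genotype, and the groups overlapped. The mean log2 values of 7.77 ± 0.48 (SD, n = 3) and 7.91 ± 0.31 (SD, n = 4) gave a difference of 0.14 ± 0.27 (SE), with an interval from -0.50 to 0.78 (adjusted p = 0.969). Srd5a3 had 4 further probe sets, whose differences lay between -0.20 and 0.11, of both signs. In one of them WT C was the highest array at 188 and T-ETV1 C the lowest at 57.8, unlike in the brightest probe set. The probe sets of Srd5a3 therefore did not rank the arrays alike, and the sign of the gene turned when their mean was used.

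Another 4 measured members belong to the family of hydroxysteroid dehydrogenases that act on sex steroids. Hsd17b12 catalyses a reduction in fatty acid elongation and can turn estrone into estradiol. It was the steadiest gene of the set, with 3556, 3786 and 3841 in WT against 3569, 4043, 3664 and 3742 in T-ETV1. Its difference was 0.01 ± 0.10 (SE; adjusted p = 0.995), and the interval from -0.22 to 0.24 corresponds to folds between 0.86 and 1.18. The second Hsd17b12 probe set had 766, 931 and 868 in WT and 660, 715, 856 and 670 in T-ETV1. Its difference was -0.24, with an interval from -0.57 to 0.09, wider than that of the brighter one.

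Hsd17b10 is a mitochondrial dehydrogenase that oxidizes androgens and estrogens and is also a subunit of mitochondrial RNase P. It had 3041, 3493 and 4124 in WT against 4204, 3563, 3753 and 4035 in T-ETV1. WT A and WT B were the lowest of the 7 arrays and WT C was near the top. The difference was 0.14 ± 0.14 (SE; adjusted p = 0.919), with an interval from -0.18 to 0.46, and the second probe set gave 0.15. Without WT C the groups did not overlap, as in 13.8% of all genes, and the difference was 0.25. After median centring they did not overlap either, as in 6.76% of all genes, at 0.275. That scaling moved the median of all genes to 0.11. Neither difference passed over all genes.

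Hsd17b4 is the peroxisomal multifunctional enzyme, which oxidizes estradiol and takes part in the breakdown of very long fatty acids. It had 1643, 1685 and 1629 in WT against 1788, 1146, 1603 and 1546 in T-ETV1. The WT arrays lay within 1.03-fold of each other and the T-ETV1 arrays within 1.56-fold, with B the lowest. The difference was -0.14 ± 0.16 (SE; adjusted p = 0.936; interval from -0.52 to 0.25), and it was -0.01 without T-ETV1 B. The second probe set gave 0.01.

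Hsd17b11 oxidizes androstanediols and sits on lipid droplets. It had 3425, 2527 and 2247 in WT against 2537, 3247, 2214 and 3438 in T-ETV1. High and low arrays occurred in both genotypes, and the within-letter differences were -0.43, 0.36 and -0.02. The difference was 0.07 ± 0.22 (SE; adjusted p = 0.985; interval from -0.45 to 0.58). A second probe set, at 73.1 to 209, gave 0.40 with an interval from -0.29 to 1.09, and another, at 10.7 to 24.1, gave -0.02.

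Cyp7b1 hydroxylates oxysterols and androgen metabolites, among them the androstanediol that binds estrogen receptor beta. Its brightest probe set had 912, 793 and 599 in WT against 954, 604, 1127 and 881 in T-ETV1. WT C was the lowest of all arrays and T-ETV1 C the highest. The difference of 0.20 ± 0.24 (SE; adjusted p = 0.940) had an interval from -0.38 to 0.78, and became -0.09 without both arrays C. The second probe set gave 0.02, and another, at 1.86 to 10.8, gave 0.22 near the floor of the arrays.

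**Figure D3:**
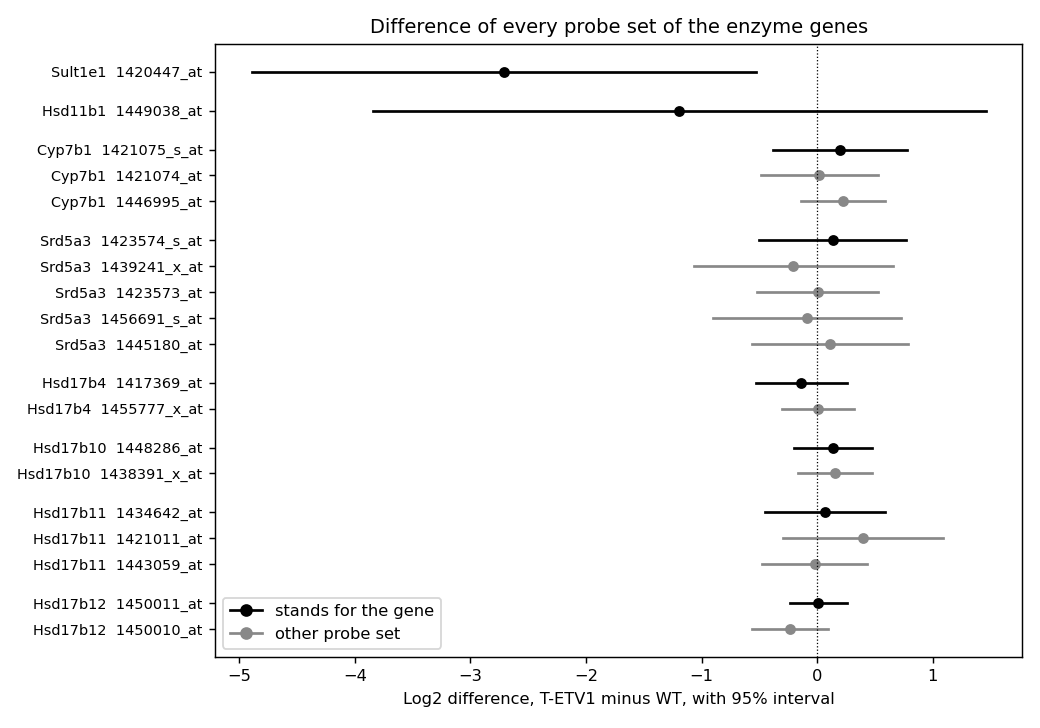
Log2 difference (T-ETV1 minus WT) with its 95% interval for each of the 19 probe sets, when every probe set was tested on its own; black marks the probe set that stands for its gene. The interval of Sult1e1, the one with a difference of -2.71, does not reach 0 before adjustment, and all 18 others do.

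Likeness over the 7 arrays was measured by Pearson's r of log2 values among 10058 genes with a mean of at least 7. Predicted genes and clone names among them were passed over. Of the rest, the closest genes to Sult1e1 were Ppp1cc (r = 0.970), Vgll4 (0.968) and Ndufaf6 (0.960). Closest to Hsd11b1 were Ifi27l2a and Ifitm2 (0.988 each) and Ilk (0.976), and closest to Cyp7b1 were Cox16 (0.949), Slc25a13 (0.947) and Rnmt (0.946). With 7 arrays and this many genes, values of this size are a description of the arrays and carry no test.

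Related genes were taken from 6 lists, and none of the genes in them passed the threshold. The sign counts of all 6 lists stand beside 55.6% of all genes below 0. Of 15 other androgen and estrogen dehydrogenases (of 17 listed) 6 were above 0 and 9 below, with a median of -0.04, and 1 had an unadjusted p under 0.05, against 6.12% of all genes. It was Hsd17b7, which also acts in cholesterol synthesis, at 0.67 ± 0.26 (SE; adjusted p = 0.804), with 1 of its 4 probe sets of opposite sign. Its intensities were 208, 361 and 219 in WT and 360, 597, 339 and 406 in T-ETV1, so that WT B lay within the T-ETV1 range.

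Of 13 genes for steroid synthesis from cholesterol (of 17 listed) 4 were above 0 and 9 below, with a median of -0.08. Of these, 0 had an unadjusted p under 0.05 (limma), against 6.12% of all genes. The smallest p belonged to Tspo, a protein of the outer mitochondrial membrane, at -0.47 ± 0.25 (SE; adjusted p = 0.851). Cyp17a1, the enzyme that makes androgens from progestins, had the widest range of all genes in these lists and was chosen after its values were seen. It had 73.7, 588 and 24.9 in WT against 87.0, 7.0, 2347 and 10.8 in T-ETV1. High and low arrays occurred in both genotypes, and the difference was -0.24 ± 1.80 (SE). Cyp11a1, which starts steroid synthesis and was chosen in the same way, had 713 in T-ETV1 B and 41.1 in T-ETV1 C, the opposite order of these 2 arrays to Cyp17a1.

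Of 13 genes for conjugation and hydroxylation (of 16 listed) 3 were above 0 and 10 below, with a median of -0.27. Of these, 2 had an unadjusted p under 0.05 (limma), against 6.12% of all genes. The groups of 2 (Cyp1b1 and Cyp3a13) did not overlap, against 6.32% of all genes. Sult1a1, a phenol sulfotransferase, differed by -1.11 ± 0.47 (SE; adjusted p = 0.812), with 529, 620 and 1022 in WT and 356, 251, 646 and 161 in T-ETV1. Cyp3a13 differed by -0.44 ± 0.14 (SE; adjusted p = 0.741), but its intensities of 1.9 to 13.3 lay under the 16 added before the log. Papss2, which makes the sulfate donor that Sult1e1 uses, was chosen after its value was seen and differed by 0.41 ± 0.18 (SE; adjusted p = 0.822). Cyp1b1, an estrogen hydroxylase chosen in the same way, had 701 in WT C and 6.2 to 26.0 in the other 6 arrays. WT C was thus on top as in Hsd11b1. Its groups parted only between 13.1 in WT A and 10.8 in T-ETV1 B, both under the 16 added before the log.

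Partners of Hsd11b1 and genes that respond to glucocorticoids numbered 14, all measured, of which 4 were above 0 and 10 below, with a median of -0.10. Among them 0 had an unadjusted p under 0.05 (limma), against 6.12% of all genes. Klf9, a glucocorticoid-responsive factor, had the smallest p, at 0.55 ± 0.25 (SE; adjusted p = 0.822), and 5 of its 7 probe sets had the opposite sign. Chosen after their values were seen, H6pd, which supplies Hsd11b1 with its cofactor, differed by -0.12 ± 0.10 (SE). Hsd11b2, which runs the opposite reaction, differed by 0.97 ± 0.64 (SE) from values of 2.5 to 137.

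The receptors for these hormones were also measured, except the androgen receptor gene, which was not analysed here. Of 6 receptor genes (of 7 listed) 3 were above 0 and 3 below, with a median of 0.003, and 1 had an unadjusted p under 0.05. Gper1, a membrane estrogen receptor, was that gene, and the one with groups that did not overlap, beside 6.12% and 6.32% of all genes. It had 199, 168 and 185 in WT and 329, 219, 299 and 207 in T-ETV1, a difference of 0.46 ± 0.18 (SE; adjusted p = 0.804). The glucocorticoid receptor gene Nr3c1 differed by -0.43 ± 0.22 (SE) and Esr2, the estrogen receptor beta, by 0.51 ± 0.28 (SE) at intensities of 23.4 to 88.4. Esr1, the estrogen receptor alpha, had 2329 to 2963 over all arrays and differed by -0.11 ± 0.12 (SE), a sign that turned after median centring. The mineralocorticoid receptor gene Nr3c2 and the progesterone receptor gene Pgr differed by -0.03 ± 0.15 (SE) and 0.03 ± 0.35 (SE), and the sign of Nr3c2 turned after quantile normalization and median centring.

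Partners of the enzymes in their routes outside hormone metabolism, such as mitochondrial RNase P, dolichol synthesis, fatty acid elongation and oxysterols, gave 7 of 20 (of 22 listed) above 0 and 13 below. Their median was -0.04, and 0 had an unadjusted p under 0.05 (limma), against 6.12% of all genes. The 4 with the smallest p were Dolk, the dolichol kinase (-0.24 ± 0.11, SE), Dpagt1, which starts the dolichol-linked sugar chain (0.16 ± 0.10), Ch25h, an oxysterol-forming hydroxylase (-0.71 ± 0.47), and Acaa1a, a peroxisomal thiolase (0.17 ± 0.13). Ch25h had 117 in WT C and 73.4 in T-ETV1 C against 16.5 to 38.9 in the other 5 arrays.

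**Figure D4:**
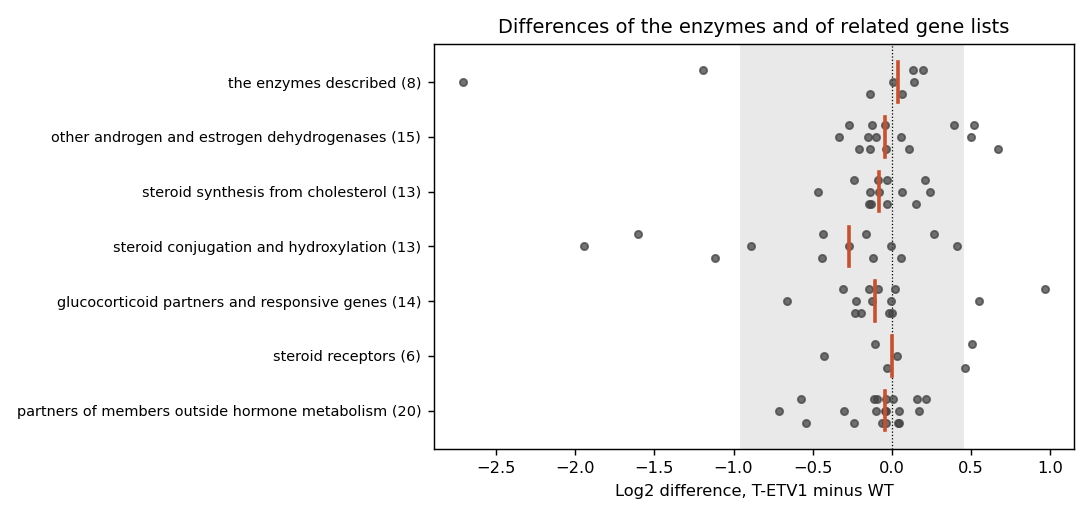
Log2 difference (T-ETV1 minus WT) of each gene in the enzyme set and in 6 related lists (points), the median of each list (red bar) and, shaded, the range from the 5th to the 95th percentile of all genes. List medians lie between -0.27 and 0.04, and Sult1e1 at -2.71 is the point farthest to the left.

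Median intensities of the arrays ran from 48.5 (T-ETV1 A) to 73.7 (WT C). Precision is limited by having 3 and 4 arrays. Tmprss2, which carries the allele, differed by -0.15 ± 0.19 (SE). Of the sort markers, Itga6 (CD49f) differed by 0.09 ± 0.21 (SE), Pecam1 (CD31) by -1.23 ± 0.71 (SE) and Ptprc (CD45) by -0.996 ± 1.17 (SE). Ptprc had 467 in WT C and 56.0 in T-ETV1 C against 4.6 to 8.3 in the other 5 arrays, and its difference was 0.51 without WT C. Mouse Etv1 and Ly6a (Sca1) were not analysed here, so the allele itself was not checked.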

How the data were processed

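The table the authors deposited gives linear intensities of 45037 probe sets on 7 Affymetrix 430 2.0 arrays. RNA was amplified with a NuGEN kit, per the labels' protocols. How the authors summarised and scaled the probes is not given in the sources used here. Values at or under 1 made up 0.605%.

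By the platform annotation 34945 probe sets belonged to 1 gene and 932 to several, and it did not list 9160. The last 2 kinds were left out, and symbols of 34741 were updated by Entrez ID. The probe set with the highest mean stood for a gene. Values were log2(intensity + 16), which understates changes of dim genes. Array medians differed by at most 0.476, under the limit of 0.5 for keeping the deposited scaling.

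The genotypes were compared by limma (version 3.58.1, R 4.3.3; lmFit and eBayes, two-sided, 6.67 total degrees of freedom) with Benjamini-Hochberg adjustment over 18193 genes and a threshold of 0.05. The fit was also run on simulated data with known differences. Those data had independent errors, so they did not cover deviations that arrays share across genes. The members and gene lists were chosen with earlier results of these data known, and lists carry no test.

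Every member is named. Of related lists, genes with an unadjusted p under 0.05 are named (at most 4), otherwise the gene with the smallest p. All receptors, 4 partners, and genes of the sort and the promoter are named too. So are the 3 genes most like each of the 3 members with the largest difference, with predicted genes and clone names passed over. Other genes are given as chosen after their values were seen.

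The alternatives were other normalizations, pseudocounts, gene filters and probe set rules, a replicate block, and leaving out arrays. Letters were taken to pair the arrays if all like-letter correlations of deviations from the group means were over 0.1. They were 0.281 (A), 0.217 (B) and 0.356 (C). Arrays of unlike letters gave -0.32 to 0.187, the highest for WT A with T-ETV1 D, also over that limit. The comparison over all 7 arrays used no block, so its errors and p-values take no account of such pairing.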

Additional observations from a re-analysis of the deposited data

Results flagged for a closer look

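In the group of 4 T-ETV1 arrays, 1 of 19 probe sets of the enzymes had an array far from the others. It was that of Hsd11b1, where T-ETV1 C (45.5) stood apart from the other 3 (7.20 to 10.1). The gap to the nearest array was 0.879 of the whole range on the log2 scale, above Dixon's 95% critical value for 4 samples. Chance flags about 1 in 20 groups, so 1 of 19 is about that number. The group of 3 WT arrays is too small for the same check, though WT C (539) lay on the same side.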

How the results depend on the processing

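Genes past the threshold numbered 0 to 27 when 1 array at a time was left out (27 without T-ETV1 C, 7 without WT C), and reached 68 when both arrays C were left out, and no enzyme of the set was among them. Enzymes whose groups did not overlap numbered 1 to 3 with 1 array left out (3 without WT C and 2 without T-ETV1 A, where 13.8% and 10.6% of all genes did not overlap) and 3 without both arrays C (Sult1e1 lower, Srd5a3 and Hsd17b10 higher), where 26.0% of all genes did not overlap. With median centring, where 6.76% of all genes did not overlap, the 1 such enzyme was Hsd17b10 in place of Sult1e1. With the replicate block (arrays A to C) 0 genes passed, Sult1e1 differed by -2.58, and Hsd17b11 turned to -0.031. Leaving out T-ETV1 D with no block gave the same differences for both genes, so the block itself did not shift them. The block changed no call.

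Over 17 alternatives, 62 named genes gave 1052 differences, of which 993 kept direction and call, 52 turned sign in 23 genes, and 7 became called (Apoe, Lama3 and Cldn5 without T-ETV1 C and without both arrays C, and Ptprb in the latter). Where signs turned, the causes were not tested. With the mean of probe sets the differences were -0.007 for Srd5a3, -0.11 for Hsd17b12, -0.087 for Klf9, -0.031 for Pgr, 0.116 for Epcam, -0.044 for Itga6 and -0.30 for Rnmt. After median centring they were 0.031 for Esr1, 0.108 for Nr3c2, 0.008 for Ppp1cc and 0.014 for H6pd, and after quantile normalization 0.045 for Nr3c2. Without both arrays C they were -0.09 for Cyp7b1, 0.057 for Nr3c2, -0.014 for Itga6, 0.089 for Ptprc, 0.006 for Ifitm2, 0.007 for Ilk, -0.026 for Cox16, -0.08 for Slc25a13 and 0.76 for Cyp11a1. Cyp17a1 was 0.07 with a pseudocount of 64 and 0.45 with the replicate block, the same as without T-ETV1 D and no block.

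With 1 array left out, ranges were -0.028 to 0.41 for Srd5a3, -0.064 to 0.24 for Hsd17b11, -0.026 to 0.033 for Hsd17b12, -1.98 to 0.29 for Hsd11b1, -0.14 to 0.041 for Nr3c2, -0.38 to 0.30 for Pgr, -0.09 to 0.175 for Itga6, -1.77 to 0.51 for Ptprc, -1.61 to 0.17 for Ifi27l2a, -0.32 to 0.082 for Ifitm2, -0.28 to 0.032 for Ilk, -0.006 to 0.092 for Cox16, -0.017 to 0.18 for Slc25a13, -1.71 to 0.87 for Cyp17a1, -1.52 to 0.02 for Sult1d1 and -0.78 to 0.45 for Cyp11a1. Of 221 list medians under alternatives 15 moved by more than the spread between arrays and 23, in 7 lists, turned sign; beyond the leukocyte markers (0.83 without WT C, 0.26 without both arrays C), these lay within -0.104 and 0.25. The pseudocount sets the size for dim arrays: with 1 and with 64, Sult1e1 differed by -3.01 and -2.15, and Hsd11b1 by -1.43 and -0.88.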

Other observations

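Other steroid-clearing genes followed the array order of Sult1e1 only in part. Cyp1a1, an estrogen-hydroxylating cytochrome, had 84.9, 149 and 121 in WT against 20.8, 1.3, 297 and 1.7 in T-ETV1, in letter order, so that 3 of 4 T-ETV1 arrays were below all WT arrays and T-ETV1 C was above them (difference -1.60 ± 1.02, SE). Sult1d1, another sulfotransferase, had 340, 26.0 and 52.2 in WT and 50.6, 6.3, 107 and 31.5 in T-ETV1 (-0.89 ± 0.86, SE). Both were chosen after their values were seen. T-ETV1 C was the highest T-ETV1 array for both and the lowest for Sult1e1.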
